A study of Homo sapiens with 6 samples.

Results

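Replication-dependent histone genes make the bulk of the histone protein that packages newly copied DNA. They were examined in RNA-seq libraries of human forebrain neuron progenitor cells after knockdown of the circular RNA circRTN4(2,3). The genes were taken by symbol, as every name that starts with HIST1H to HIST4H, after dropping 8 names of the pseudogene form, which left 75 of the 59151 rows of the deposited expression table. By class there were 6 genes for the linker histone H1, 17 for H2A, 23 for H2B, 14 for H3 and 15 for H4. In the GENCODE v29 annotation 55 lie in the HIST1 cluster on chromosome 6, 19 lie on chromosome 1 (15 HIST2 and 4 HIST3 genes) and 1, HIST4H4, lies on chromosome 12. The same annotation lists 70 of the 75 as protein-coding and the other 5, all of class H2B, as pseudogenes (HIST2H2BA, HIST2H2BB, HIST2H2BC, HIST2H2BD and HIST3H2BA).

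The cells were derived from H9, an established line of human embryonic stem cells, were labelled wild type in genotype in all groups, and were collected at day 26. There were 3 groups of 2 libraries: a scramble hairpin control, circRTN4 shRNA1 and circRTN4 shRNA2, which are hairpin RNAs directed at the circular RNA made from RTN4. All libraries were total RNA depleted of ribosomal RNA, so that messages without a poly(A) tail were kept. The labels call the cells both forebrain neuron progenitors and forebrain neurons, name a single cell line, and number the 2 libraries of a group without stating whether they were grown separately. The p-values below therefore describe the scatter between these libraries, and that scatter could be purely technical. The labels give neither the vector nor the promoter that expressed the hairpins.

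Replication-dependent histone genes are switched on at the start of S phase, when the factor NPAT, acting at histone locus bodies, drives their transcription, and their messages are destroyed when DNA synthesis stops. Their short, mostly intronless messages end in a conserved stem-loop rather than a poly(A) tail. The stem-loop is bound by SLBP, and the U7 small nuclear RNA with LSM10 and LSM11 guides the cut that forms the 3′ end. In a mixed culture, dividing progenitors are the main source of these messages, whereas neurons rely on replication-independent variants such as H3.3.

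The stem-loop is shown because it is the feature that sets these messages apart from polyadenylated ones. It was searched for in the 100 bases after the stop codon of the GENCODE v29 transcripts. The pattern was a 16-base hairpin that opens with GG and closes with CC, with 6-base arms that pair (G with T allowed) around a 4-base loop. The innermost pair was fixed as T with A, and loop bases 1 and 3 as T. All forms found therefore share these letters by the search. Of the 75 genes, 36 had an annotated transcript reaching at least 16 bases past the stop codon, and 32 of these held the stem-loop, 23 to 68 bases after it. Among 19380 protein-coding genes with such a stretch, 33 (0.17%) held it. The gene outside the family was H2AFX, which encodes the replication-independent variant H2A.X. There were 6 distinct sequences among the 32 genes. The commonest, shown for HIST1H2AE, was found in 17 genes, and that of HIST1H2BF in 5 genes of H2B and H3. The forms of HIST1H4J and HIST2H4A were found in 5 and 3 genes, all of class H4, and accounted for all 8 H4 genes with a stem-loop. The forms of HIST1H3E and HIST1H2AG were found in 1 gene each. Sequences are in DNA letters on the sense strand, 5′ to 3′, with 5 flanking bases on each side and the 2 arms in capitals.
HIST1H2AE: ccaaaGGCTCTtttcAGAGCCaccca
HIST1H2BF: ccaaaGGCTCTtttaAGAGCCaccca
HIST1H4J: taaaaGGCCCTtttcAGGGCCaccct
HIST2H4A: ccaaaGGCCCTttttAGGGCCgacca
HIST1H3E: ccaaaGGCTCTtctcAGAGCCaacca
HIST1H2AG: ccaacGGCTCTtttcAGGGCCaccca
Most other histone gene models, such as HIST1H4K and HIST1H1B, stop at or near the stop codon. The stretch that could hold the stem-loop was not annotated for them. The rest of the 36 genes with an annotated stretch had no match to the pattern in it.

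Promoter sequences were available from RefSeq (GRCh38.p14) for 65 of the 75 genes as 69 windows of 300 bases, from 250 bases before to 50 bases after the start of transcription, with 2 windows for 4 genes. Because histone genes sit close together, 23 of the 69 windows overlap a window of another histone gene. Motifs were searched on both strands. The CCAAT box was present in 59 of the 69 windows (85.5%) against 34.6% of all 35116 RefSeq windows, and TATAAA in 46 (66.7%) against 11.5%. The octamer ATTTGCAT, a site known to bind Oct-1, was present in 27 windows (39.1%) against 1.77%. It was found in 15 of 20 H2B windows and 11 of 16 H2A windows. It was also in 1 of 14 H3 windows and in 0 of the H1 and H4 windows. That H3 window, of HIST1H3D, is shared with the H2A gene HIST1H2AD. The H1 motif known as the AC box, AAACACAAA, was in 3 of 6 H1 windows against 0.635% of all windows. A 13-base core of the H4 gene element known as site II, with 1 base left open, was in 2 of 13 H4 windows (15.4%) against 0.0057% of all windows. The CCAAT box was present in 3 of 13 H4 windows and in every window of the other classes. No motif in this list contains another. A match describes the letters of the window and does not show that a factor was bound.

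Windows of 3 genes are printed, from H1, H2B and H3, because the levels of these genes are described below and their motifs differ by class. Capitals mark the motif matches, on either strand. The first, on the minus strand at chr6:27867539-27867838, has the AC box at -226, counted from the start of transcription. It also has CCAAT boxes at -66 and -53, on opposite strands. The second, on the plus strand at chr6:26199266-26199565, has the octamer at -111 and CCAAT boxes at -159, -141 and -76, and also holds most of a window shared by HIST1H2AD and HIST1H3D, which are transcribed the other way. The third, on the minus strand at chr6:26032050-26032349, has CCAAT boxes at -96 and -54 and TATAAA at -32.
HIST1H1B: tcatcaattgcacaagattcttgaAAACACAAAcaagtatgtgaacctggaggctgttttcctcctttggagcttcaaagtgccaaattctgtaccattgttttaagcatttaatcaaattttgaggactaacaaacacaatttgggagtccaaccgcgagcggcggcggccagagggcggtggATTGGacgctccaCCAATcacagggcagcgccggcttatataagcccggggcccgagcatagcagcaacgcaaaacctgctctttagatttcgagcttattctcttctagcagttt
HIST1H2BF: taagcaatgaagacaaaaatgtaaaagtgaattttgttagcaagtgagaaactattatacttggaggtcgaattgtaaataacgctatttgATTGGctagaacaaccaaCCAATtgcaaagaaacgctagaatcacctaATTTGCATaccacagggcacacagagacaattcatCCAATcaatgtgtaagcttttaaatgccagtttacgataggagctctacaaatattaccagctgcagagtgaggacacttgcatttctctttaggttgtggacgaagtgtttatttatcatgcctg
HIST1H3B: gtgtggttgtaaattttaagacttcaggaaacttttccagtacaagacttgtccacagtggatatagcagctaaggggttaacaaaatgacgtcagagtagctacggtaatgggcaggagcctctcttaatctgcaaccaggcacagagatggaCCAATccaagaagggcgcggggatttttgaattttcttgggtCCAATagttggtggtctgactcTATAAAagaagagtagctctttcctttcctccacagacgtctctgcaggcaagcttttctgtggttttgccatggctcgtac

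The values are FPKM, which are fragments scaled by gene length and by the library total, so levels of different genes are comparable per length. Scramble replicate 1 was the shallowest library: the totals, recovered from the steps between low values, were 46634855 reads for it and 77187298 to 83629504 for the rest. On a gene of 1 kb, 3 reads correspond to 0.0643 FPKM in scramble replicate 1 and to 0.0359 to 0.0389 FPKM elsewhere, and these limits cover counting error only. The summed FPKM of 9 neural progenitor markers was 180.3 to 207.1 per library, and that of 7 neuron markers 329.5 to 383.6. That of 4 astrocyte markers was 0.237 to 0.413, and none of these markers was at 0 in every library. The progenitor markers did not all move alike. PAX6 had 3.31 and 3.17 FPKM in scramble and 2.13 to 2.49 in the knockdown libraries. NES had 48.63 and 51.45 FPKM in scramble, 46.94 and 46.5 with shRNA1 and 56.31 and 56.09 with shRNA2. RTN4 itself had 40.3 and 38.5 FPKM in scramble, 34.2 and 34.7 with shRNA1 and 31.2 and 31.3 with shRNA2. These gene-level values mix linear and circular RNA, and the level of the circular RNA was not measured. The cultures of the groups were not identical in other respects: 7 markers of choroid plexus and roof plate summed to 22.3 and 24.9 FPKM in scramble and 6.56 to 7.31 in the knockdown libraries, 6 mesenchyme markers to 5.06 and 5.75 against 0.536 to 1.14, and 7 pluripotency markers to 16.5 in both shRNA2 libraries against 7.70 to 8.95 elsewhere. The pluripotency sum came mostly from LIN28A, DPPA4 and SALL4, which were at 4.27 to 5.95 FPKM with shRNA2. POU5F1 and NANOG were at most 0.0687 FPKM in any library. The part of these marker differences in the histone values was not tested. In bulk RNA, fewer cells of a type and less RNA per cell cannot be told apart.

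Histone messages were abundant in all 6 libraries. Over the 6 libraries 12 genes had a mean of at least 100 FPKM, 46 a mean of 10 to 100 and 10 a mean of 1 to 10. The 7 remaining genes were below a mean of 1 FPKM, had no value above 0.938 FPKM in any library and were not tested. They were HIST1H1A, HIST1H2AA, HIST1H2BA, HIST1H3C, HIST1H4F, HIST1H4G and HIST3H3, among which HIST1H2AA and HIST1H2BA are known as testis genes. All further counts refer to the 68 genes that passed this limit (5 H1, 16 H2A, 22 H2B, 12 H3 and 13 H4), which are not all members of the family.

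Summed over the 75 genes, the histone level was 4262 FPKM for the first scramble library, 5805 for the second, 4260 and 4181 in the shRNA1 libraries and 4574 and 4212 in the shRNA2 libraries. Scramble replicate 2 stood above the other 5 libraries, and scramble replicate 1 lay among the knockdown libraries. In each class scramble replicate 2 was the highest library by FPKM. As a share of all FPKM, which summed to 184241 and 237698 in scramble and to 179340 to 204221 in the knockdown libraries, the histone genes made 2.31 and 2.44% in scramble, 2.09 and 2.1% with shRNA1 and 2.49 and 2.35% with shRNA2. On that scale shRNA2 replicate 1 was the highest library, the scramble libraries lay closer together, and scramble replicate 2 was the highest for H4 alone among the classes. The H4 sum was 1156 and 1602 FPKM in scramble, 1178 and 1127 with shRNA1 and 1230 and 1138 with shRNA2. The H3 sum was 604.9 and 938.7 FPKM in scramble, 658.6 and 659.4 with shRNA1 and 767.7 and 665.1 with shRNA2. For H3 scramble held both the lowest and the highest library. The H1 sum was 737.6 and 943.5 FPKM in scramble, 704.0 and 680.5 with shRNA1 and 705.5 and 689.1 with shRNA2. H1 was the only class in which scramble replicate 1 was above every knockdown library. The H2A sum was 1060 and 1421 FPKM in scramble, with 1042 to 1152 in the knockdown libraries, and the H2B sum 703.8 and 900.0 in scramble, with 662.5 to 719.2. The share of each class in the histone total moved little: H1 made 15.4 to 17.3%, H2A 24.5 to 25.2%, H2B 15.5 to 16.5%, H3 14.2 to 16.8% and H4 26.9 to 27.6%.

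**Figure D1:**
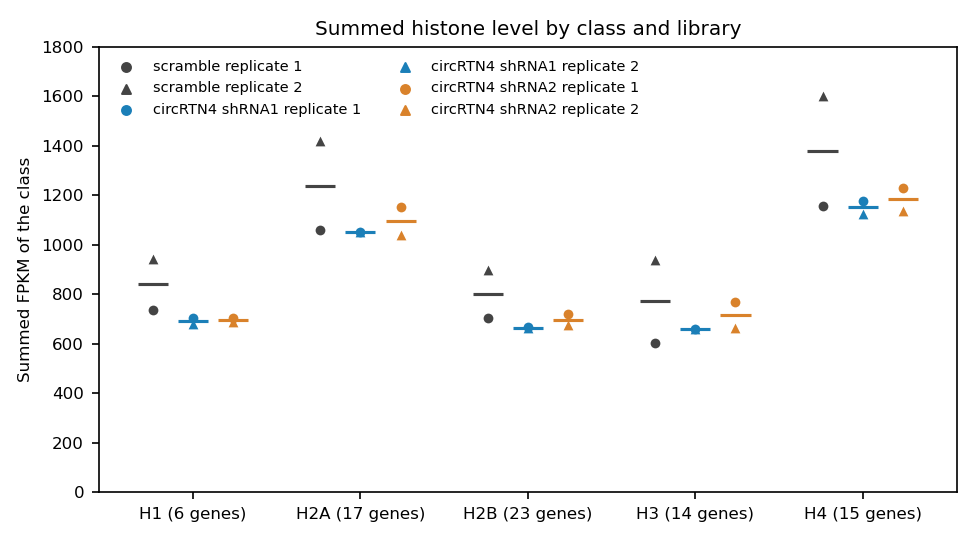
Summed FPKM of the genes of each histone class in each library (y axis, linear from 0), with circles for replicate 1, triangles for replicate 2 and a bar at the mean of the 2 libraries of a group. In every class the triangle of scramble replicate 2 is the highest point, at 1602 FPKM for H4.

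Levels ranged widely within each class. For linker histones the leading genes were HIST1H1C (H1.2), HIST1H1E (H1.4) and HIST1H1B (H1.5), with class levels from 2.09 to 255.9 FPKM on average. Values here and below are in the order scramble replicates 1 and 2, shRNA1 replicates 1 and 2, and shRNA2 replicates 1 and 2. HIST1H1C had 259.7, 324.1, 240.6, 235.2, 236.1 and 239.5 FPKM. HIST1H1E had 236.9, 319.8, 246.6, 239.9, 235.1 and 217.1 FPKM. HIST1H1B had 200.7, 251.6, 181.8, 170.8, 193.3 and 189.2 FPKM. For HIST1H1C and HIST1H1B both scramble libraries were above all 4 knockdown libraries, whereas for HIST1H1E scramble replicate 1 lay inside their range. HIST1H1D (H1.3) was at 38.3, 45.3, 33.3, 33.2, 38.4 and 40.5 FPKM. HIST1H1T, a linker histone known from the testis, was at 1.97, 2.59, 1.75, 1.46, 2.37 and 2.42 FPKM. In both of these genes the shRNA1 libraries were the lowest, and shRNA2 overlapped scramble.

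Among the core histones, H2A and H2B pair as a dimer in the nucleosome. HIST1H2AE, the leading H2A gene, had 230.4, 282.1, 221.6, 217.3, 215.4 and 197.3 FPKM. HIST2H2AA4 had 166.3, 245.3, 183.1, 182.7, 202.9 and 188.8 FPKM, and HIST2H2AC had 135.3, 170.9, 131.9, 136.8, 141.4 and 128.3. HIST1H2AE was lower in every knockdown library than in either scramble library, and for the other two genes the groups overlapped. H2B genes had lower levels, up to a mean of 94.1 FPKM. HIST1H2BC had 99.6, 111.9, 86.6, 87.0, 91.7 and 87.6 FPKM, with no overlap between scramble and knockdown. HIST1H2BK had 70.1, 102.5, 73.3, 69.6, 75.6 and 70.1 FPKM, and HIST1H2BO had 68.5, 100.5, 70.0, 64.0, 74.9 and 71.1. In these last genes only scramble replicate 2 stood apart.

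H3 and H4 form the tetramer at the centre of the nucleosome. HIST1H3B, the leading H3 gene, had 238.4, 351.0, 244.2, 245.8, 289.7 and 255.1 FPKM, with scramble replicate 1 the lowest library. HIST1H3F had 75.4, 120.5, 81.1, 83.9, 95.3 and 85.7 FPKM, and HIST1H3J had 52.7, 77.7, 58.4, 57.3, 68.3 and 60.7. All 3 leading H3 genes had the lowest and the highest value in scramble. HIST1H4J had 255.8, 417.9, 299.7, 282.9, 297.5 and 278.4 FPKM. HIST1H4D had 211.9, 293.8, 222.2, 204.1, 242.1 and 224.7 FPKM, and HIST1H4C had 172.2, 216.7, 156.6, 159.6, 181.0 and 171.9. Nearly all H4 genes encode the same protein, so the class sum describes the messages for a single protein. The level of a gene also depends on the length its model was given. HIST1H2BN had 1468.4 to 3449.5 reads and 5.64 to 8.16 FPKM with a model of 5477 bases, whereas HIST1H2AI had 1993.3 to 4620.5 reads and 82.2 to 119.0 FPKM with a model of 503 bases. Of the 75 genes, 23 had a GENCODE v29 model over 1000 bases.

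**Figure D2:**
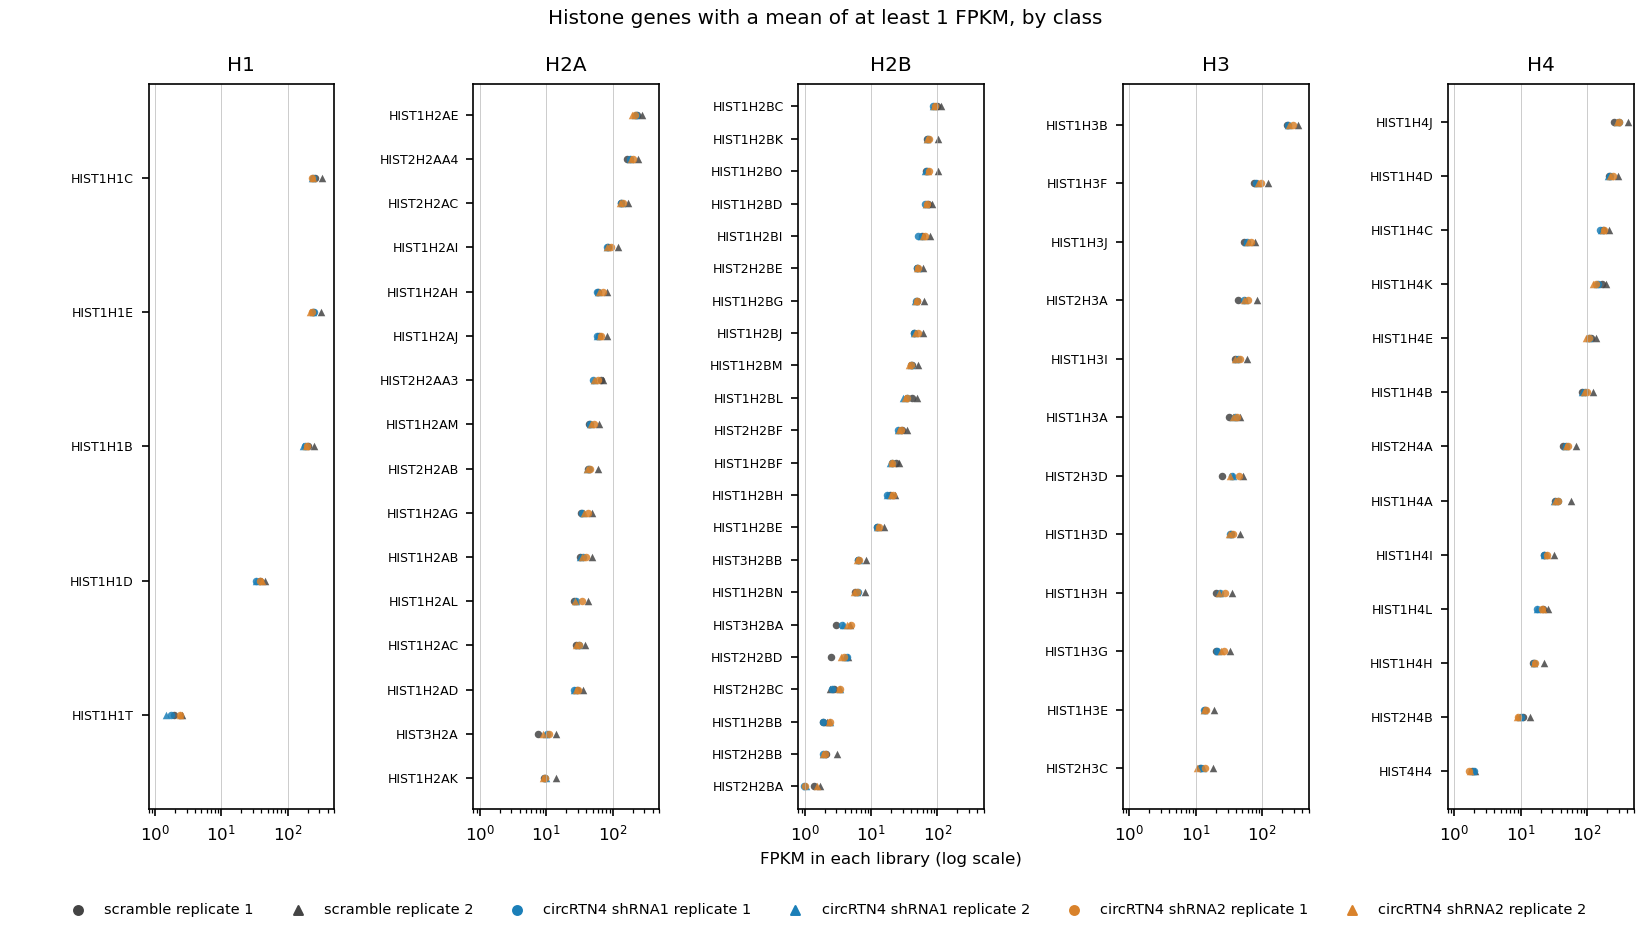
FPKM (x axis, log scale) of the 68 tested histone genes in each of the 6 libraries, by class, ordered by mean level, with black for scramble, blue for shRNA1 and orange for shRNA2, and circles for replicate 1 and triangles for replicate 2. In 65 of the 68 genes the black triangle of scramble replicate 2 lies furthest to the right.

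The scatter between the 2 scramble libraries was the main feature of these genes. Scramble replicate 2 was above scramble replicate 1 in 67 of 68 genes, against 56.6% of the 18162 tested genes, and was the highest of all 6 libraries in 65 genes (95.6%), against 33.9% of tested genes. That count depended on the scaling: scramble replicate 2 was the highest in 62 genes with median-of-ratios scaling, in 35 (51.5%) with quantile normalization, against 24.6% of tested genes, and in 14 (20.6%) as a share of all FPKM, against 3.20%. It was above scramble replicate 1 in 67, 64 and 44 genes under these scalings, which were applied to this count after the data were seen. As a share of all FPKM, the median log2 difference between the scramble libraries was 0.093 over histone genes and -0.31 over all tested genes. By FPKM, the 3 other genes were HIST1H2BB and the pseudogenes HIST2H2BC and HIST3H2BA, all with a mean under 5 FPKM. Scramble replicate 1 lay inside the range of the 4 knockdown libraries in 30 histone genes (44.1%), near the share over all tested genes (45.2%). It was below all 4 knockdown libraries in 24 histone genes and above all of them in 14. The median ratio of scramble replicate 2 to replicate 1 was 1.38 over histone genes and 1.04 over all tested genes. By class the median ratio was 1.25 for H1, 1.28 for H2B, 1.39 for H4, 1.42 for H2A and 1.52 for H3. The ratio ran from 0.880 in HIST2H2BC to 2.04 in HIST2H3D, which was at 24.8 FPKM in scramble replicate 1 and 50.6 in replicate 2 (both extremes chosen after their values were seen). On the log2(FPKM + 1) scale the median SD between replicates was 0.31 for histone genes in scramble, 0.027 with shRNA1 and 0.081 with shRNA2, against 0.11, 0.036 and 0.045 over all tested genes.

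The libraries of shRNA2 also differed, the other way. Replicate 2 of shRNA2 was above replicate 1 in 7 of 68 histone genes, and in 0 of the 16 H2A and 0 of the 12 H3 genes, with a median difference of -0.11 on the log2 scale against -0.013 over all tested genes. The shRNA1 libraries differed by a median of -0.0048, with replicate 2 higher in 30 of 68 genes. Small structured RNAs, which like histone messages are short and lack a poly(A) tail, varied between the same libraries. Of 21 tested genes of this kind 18 were higher in scramble replicate 2 than in replicate 1, with a median difference of 0.72 on the log2 scale, and the summed level of 23 such genes was 32080 and 64710 FPKM for scramble replicates 1 and 2, and 37100 to 48460 in the knockdown libraries. Genes of small RNA types made 30.3% of all FPKM in scramble replicate 1, 40.7% in replicate 2 and 34.3 to 36.1% in the knockdown libraries. In shRNA2 the small structured RNAs differed by a median of 0.18, in the direction opposite to the histone genes. The part of small RNA capture in the histone values was not tested.

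Genes of S phase and DNA replication (S-phase genes below) moved less than the histone genes between the scramble libraries. Of 28 tested S-phase genes 17 (60.7%) were higher in scramble replicate 2 than in replicate 1, against 56.6% of all tested genes. Their median difference was 0.065 on the log2 scale. Scramble replicate 2 was the highest library for 14 of them (50%), against 33.9% of all tested genes. The 30 S-phase genes summed to 192.0 and 200.1 FPKM with the scramble hairpin, 162.6 and 162.2 with shRNA1 and 179.7 and 177.6 with shRNA2. The histone sum over the same scramble libraries differed by a factor of 1.36 in FPKM, and was 2.31 and 2.44% as a share of all FPKM. The part of replicating cells in these differences was not tested. Among replication-independent variants the ratio of scramble replicate 2 to replicate 1 was 1.53 for H2AFX, the only one found to carry the histone stem-loop. The ratio was 1.78 for H1FX and 0.944 to 1.32 for the 10 others. The 1.32 was that of H3F3C, whose mean was under 1 FPKM, and the next highest was 1.19 in H1F0. H3F3A and H3F3B, which encode H3.3, had ratios of 0.944 and 1.01.

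**Figure D3:**
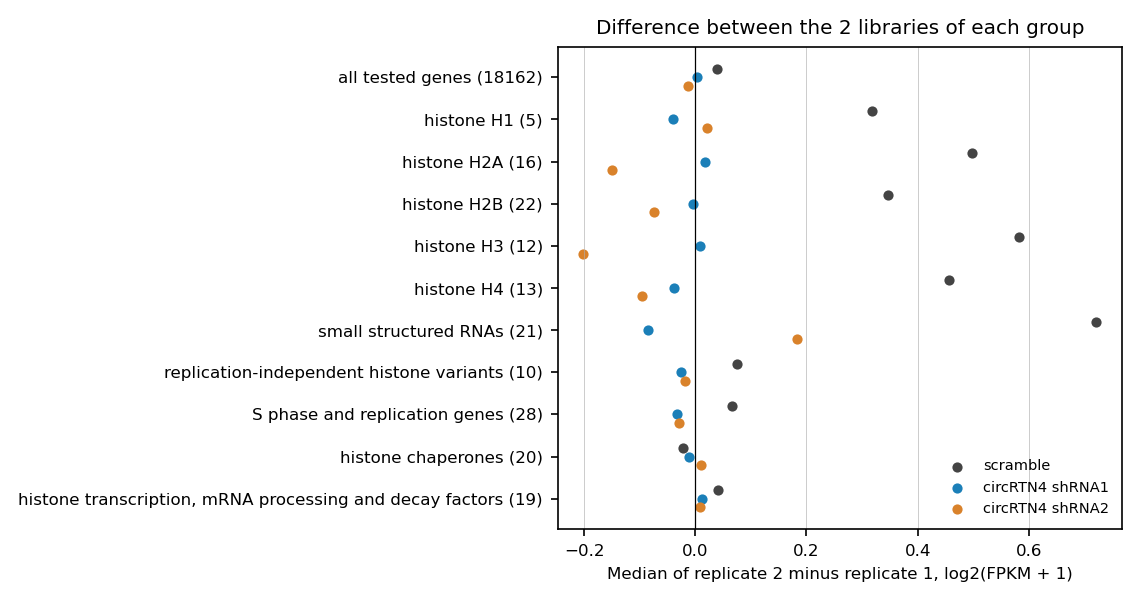
Median difference between replicate 2 and replicate 1 on the log2(FPKM + 1) scale (x axis) for the tested genes of 11 sets, with the number of genes in brackets and 1 point for each group. The 5 histone classes and the small structured RNAs lie at 0.318 or more in scramble, and the other 5 sets plotted lie within 0.076 of 0 in all 3 groups.

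Knockdown by both hairpins together was compared with scramble by limma on log2(FPKM + 1), in 1 fit of all 3 groups, with Benjamini-Hochberg adjustment over the 18162 tested genes and a call at an adjusted p under 0.05. No histone gene was called (0 of 68), against 0.0826% of all tested genes. At an unadjusted p under 0.05, 14 of 68 genes (20.6%) passed, all lower in knockdown, against 9.56% of all genes. The fitted log2 fold change was below 0 in 62 of 68 genes, against 63.1% of all tested genes, with a median of -0.18 against -0.034 over all tested genes. It was below 0 in all 5 H1, all 16 H2A and all 13 H4 genes, in 18 of 22 H2B and in 10 of 12 H3 genes. Class medians were -0.23 for H1, -0.21 for H4, -0.19 for H2B, -0.18 for H2A and -0.15 for H3. These medians rest on scramble replicate 2: without that library the median was 0.039 and 26 of 68 genes were below 0, and without scramble replicate 1 it was -0.41 and 66 genes were below 0. With quantile normalization of the libraries, the median was -0.031.

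Groups did not overlap in 14 of 68 genes (20.6%), all lower in knockdown, against 12.6% of all tested genes. They included HIST1H1B, HIST1H1C, HIST1H2AE, HIST1H2BC, HIST1H2BF, HIST1H4K and HIST2H2AA3. The 3 genes with the smallest p were among those with the closest scramble libraries. HIST2H2AA3, an H2A gene, had 68.1, 71.4, 50.03, 52.7, 59.5 and 52.3 FPKM, and its log2 fold change in knockdown was -0.38 (SE 0.070, limma adjusted p = 0.155). HIST1H2BF, an H2B gene, had 23.96, 26.3, 20.8, 19.5, 20.7 and 20.6 FPKM, with a log2 fold change of -0.29 (SE 0.058, limma adjusted p = 0.166). HIST1H4K, an H4 gene, had 168.3, 193.9, 145.1, 141.3, 138.0 and 124.4 FPKM, with a log2 fold change of -0.40 (SE 0.085, limma adjusted p = 0.182). Both scramble libraries were the highest in each of these genes. The ratio of scramble replicate 2 to replicate 1 was 1.05 in HIST2H2AA3, 1.10 in HIST1H2BF and 1.15 in HIST1H4K. The largest fitted decrease, -0.44 in HIST1H2BL, another H2B gene chosen here for its value, had a limma adjusted p of 0.199.

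The 6 genes fitted above 0 were the H2B genes HIST1H2BB, HIST2H2BC, HIST2H2BD and HIST3H2BA and the H3 genes HIST1H3A and HIST2H3D, and they are named here because they were few. HIST2H2BC, an annotated pseudogene, had 2.75, 2.42, 2.57, 3.46, 3.42 and 3.29 FPKM, a log2 fold change of 0.22 (SE 0.10) and a limma adjusted p of 0.440. Of these 6 genes 3 are annotated pseudogenes, and the 2 other pseudogenes, HIST2H2BA and HIST2H2BB, were fitted below 0.

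**Figure D4:**
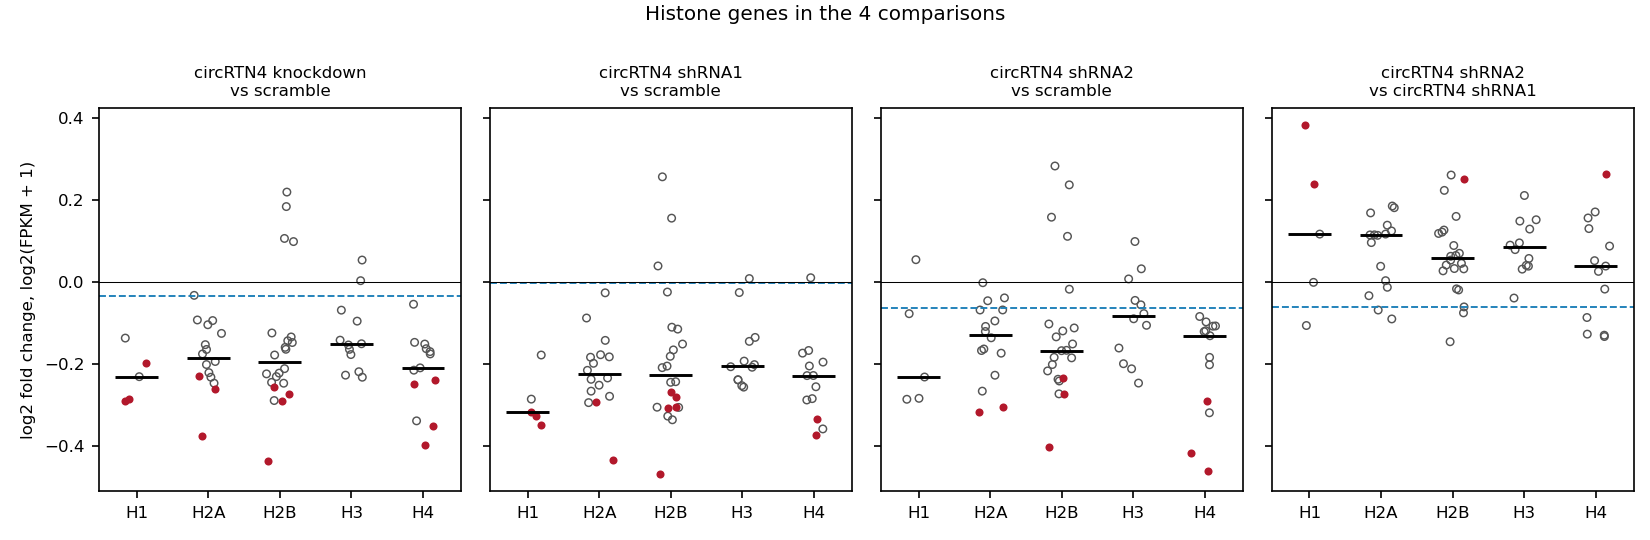
Log2 fold change on the log2(FPKM + 1) scale (y axis) of each tested histone gene in the 4 comparisons, by class, with filled red points for an unadjusted p under 0.05, a black bar at the class median and a dashed blue line at the median of all tested genes. Against scramble most points lie below 0 (62, 63 and 60 of 68), and none passed the adjusted threshold.

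The hairpins were also compared with scramble one at a time. These comparisons share the scramble libraries, so their values are given side by side. With shRNA1, 0 of 68 histone genes were called by limma, against 0.033% of all tested genes, and 12 (17.6%) passed an unadjusted p under 0.05, all lower, against 5.15% of all genes. With shRNA2, 0 of 68 were called, against 0.628%, and 8 (11.8%) passed an unadjusted p under 0.05, all lower, against 14.4%. Fold changes were below 0 in 63 of 68 genes with shRNA1, against 51.1% of all tested genes, and in 60 of 68 with shRNA2, against 67.7%. The median log2 fold change was -0.23 with shRNA1, against -0.0028 over all tested genes, and -0.13 with shRNA2, against -0.064. Without scramble replicate 2 the medians were 0.015 and 0.071, and with quantile normalization they were -0.13 with shRNA1 and 0.082 with shRNA2. With median-of-ratios scaling they were -0.23 and -0.058. Groups did not overlap, with lower levels in knockdown, in 28 genes (41.2%) with shRNA1 against 18.9% of all genes, and in 16 genes (23.5%) with shRNA2 against 34.4%. With shRNA2 another 2 genes did not overlap and were higher, against 13.3% of all genes.

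HIST2H2AA3 and HIST1H2BF were among the 3 genes with the smallest p for each hairpin against scramble. The log2 fold change of HIST2H2AA3 was -0.43 with shRNA1 (limma adjusted p = 0.301) and -0.32 with shRNA2 (limma adjusted p = 0.149). That of HIST1H2BF was -0.31 with shRNA1 (limma adjusted p = 0.336) and -0.27 with shRNA2 (limma adjusted p = 0.142). For shRNA1 the third gene was HIST1H4L, an H4 gene at 21.3, 25.4, 17.9, 17.6, 21.1 and 21.9 FPKM, with a log2 fold change of -0.37 (SE 0.089, limma adjusted p = 0.379). For shRNA2 the third was HIST1H4K, with -0.46 (SE 0.098, limma adjusted p = 0.120).

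The difference between the hairpins was tested directly as shRNA2 against shRNA1, a comparison that does not use the scramble means. By limma 0 of 68 histone genes were called, as were 0% of all tested genes. At an unadjusted p under 0.05 there were 4 genes (5.88%), all higher with shRNA2, against 4.03% of all genes. The median log2 fold change was 0.068, against -0.060 over all tested genes (0.15 against 0.0013 with median-of-ratios scaling), and 17 of 68 histone genes were below 0, against 66.9%, and 51 above. Levels did not overlap in 28 genes (41.2%) that were higher with shRNA2, against 16.6% of all genes, and in 6 (8.82%) that were lower, against 46.6%. Class medians were 0.12 for H1, 0.12 for H2A, 0.085 for H3, 0.059 for H2B and 0.039 for H4. Without shRNA2 replicate 1, the higher of the 2 shRNA2 libraries for most histone genes, the median was 0.012 and 38 genes were above 0. The smallest p were those of HIST1H1T, with a log2 difference of 0.38 (SE 0.11, limma adjusted p = 0.235), HIST1H4L, with 0.26 (SE 0.089, limma adjusted p = 0.265), and HIST1H1D, with 0.24 (SE 0.089, limma adjusted p = 0.296). In all 3 genes both shRNA2 libraries were above both shRNA1 libraries.

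The spread used in that test came from all 6 libraries, the scramble libraries included. With a fit of the 4 hairpin libraries alone, 3 histone genes were called as higher with shRNA2. They were HIST1H1D (limma adjusted p = 0.0495), HIST1H4I (limma adjusted p = 0.0485) and HIST1H4L (limma adjusted p = 0.0444). HIST1H4I, an H4 gene, had 22.1 and 22.5 FPKM with shRNA1 and 25.2 and 25.3 with shRNA2, against 22.7 and 31.6 in scramble. They made 4.41% of the 68 genes, against 0.853% of all tested genes called as higher in that fit, and 957 of all tested genes were called in either direction.

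The calls against scramble depended on which scramble libraries were in the fit. Without scramble replicate 1, which was also the shallowest library, 18 histone genes (26.5%) were called lower in knockdown, against 2.37% of all tested genes, and 34 of 68 were called lower with shRNA2, against 11.5%. With shRNA1 the count stayed at 0. Without scramble replicate 2 no histone gene was called in these comparisons. A single scramble library was assumed in these fits to vary like the hairpin libraries, whose spread was smaller. The 34 genes included HIST1H1B, HIST1H1C, HIST1H1E, HIST1H2AE, HIST1H2BC, HIST1H2BF, HIST1H4J and HIST1H4K.

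**Figure D5:**
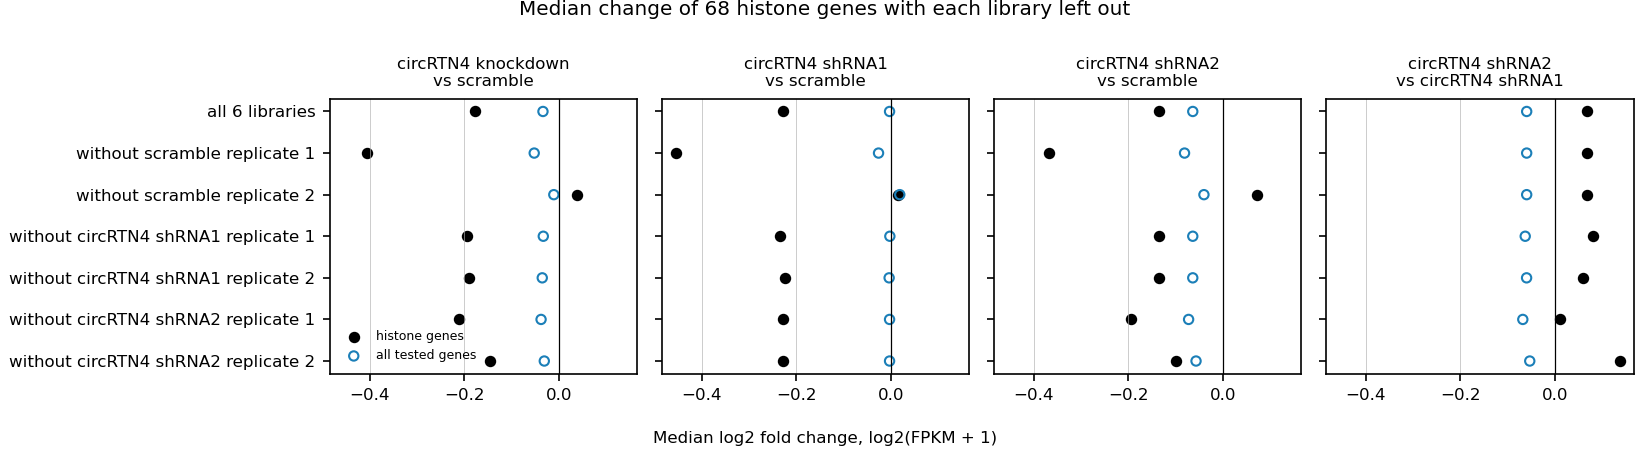
Median log2 fold change (x axis) of the 68 histone genes (filled black) and of all tested genes (open blue) in the 4 comparisons, with all 6 libraries and with each library left out. In the knockdown comparison the histone median moved from -0.41 without scramble replicate 1 to 0.039 without scramble replicate 2, and the other 4 omissions left it below 0.

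Sequence shared between gene copies limits which gene a read can be given to. Of the 75 genes, 30 shared no stretch of 50 bases with any other GENCODE v29 gene. Another 19 shared at least 50% of their 50-base stretches. The models searched were those of GENCODE v29, and the models that were counted are not known. Recovered reads matched the GENCODE v29 lengths for 26 of the 75 genes, and HIST2H2AA3 and HIST1H4K were not among these. In 4 pairs of copies, each gene shared at least 81.2% of its stretches with the other. HIST2H2AA3 at chr1:149842188-149842736 shares 100% of its stretches with HIST2H2AA4 at chr1:149851061-149851624, and HIST1H4K shares 100% with HIST1H4J. In scramble, replicate 2 was 1.05 times replicate 1 for HIST2H2AA3 and 1.48 times for HIST2H2AA4, although HIST2H2AA3 has no 50-base stretch of its own and HIST2H2AA4 shares 97.1% of its stretches. Summed over the pair, the level was 234.3 and 316.7 FPKM in scramble, 233.2 and 235.4 with shRNA1 and 262.4 and 241.1 with shRNA2. The sum of HIST1H4J and HIST1H4K was 424.1 and 611.8 FPKM in scramble, 444.8 and 424.2 with shRNA1 and 435.5 and 402.9 with shRNA2. In both sums scramble replicate 1 lay inside the range of the knockdown libraries, so the separation seen for HIST2H2AA3 and HIST1H4K alone was not seen for the pair. For the sum of HIST2H3A with HIST2H3C scramble replicate 1 was below every knockdown library (54.7 FPKM against 63.3 to 75.7). The same held for the sum of HIST2H4A with HIST2H4B (53.95 FPKM against 56.6 to 60.5). The 23 tested genes with no shared stretch had a median log2 fold change of -0.20 in knockdown, with 21 of them below 0, and a median scramble ratio of 1.32, against -0.22 and 1.46 for the 19 genes with at least 50% shared. The medians were -0.11 and -0.17 with shRNA2 against scramble, and 0.12 and 0.053 in shRNA2 against shRNA1. The differences between these sets were not tested.

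Histone genes were also split by whether the stem-loop was found in their GENCODE v29 model, which need not be the model that was counted. The 31 tested genes with a stem-loop in the model had a median log2 fold change of -0.17 in knockdown and a median scramble ratio of 1.37. The 37 others, most of whose models stop before a stem-loop could be held and which include the pseudogenes, had -0.20 and 1.38. In shRNA2 against shRNA1 the medians were 0.046 with a stem-loop and 0.12 without. The differences between these sets were not tested.

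The factors that make and process histone messages were followed as a list of 19 genes. None of the 19 was called in any of the 4 comparisons, and at an unadjusted p under 0.05 there were 2 lower in knockdown and 0 higher, against 9.56% of all tested genes lower. Their median log2 fold change in knockdown was -0.052. SLBP had 6.07, 6.86, 6.12, 6.197, 5.39 and 5.38 FPKM, with a log2 fold change of -0.14 in knockdown (limma adjusted p = 0.380) and -0.22 with shRNA2 (limma adjusted p = 0.181). Its shRNA2 libraries were the lowest, and shRNA1 lay within the scramble range. NPAT had 2.74, 2.52, 2.54, 2.57, 2.46 and 2.63 FPKM, with groups that overlapped. RNU7-1, the U7 RNA, had 4.77, 5.90, 4.37, 4.92, 4.27 and 4.30 FPKM, and scramble replicate 2 was again the highest library. LSM11, which binds the U7 RNA, had 2.54, 2.65, 2.81, 3.06, 2.05 and 2.09 FPKM and was -0.36 in shRNA2 against shRNA1 (limma adjusted p = 0.139).

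Genes that act beside these histones were also not called in any comparison. Of 28 tested S-phase genes 27 were below 0 in knockdown, with a median log2 fold change of -0.15, and 13 passed an unadjusted p under 0.05, all lower. Over all tested genes in knockdown, 63.1% were below 0 and 9.56% passed as lower, which is the background for this list and those below. With shRNA1 all 28 were below 0, with a median of -0.21, and 17 passed, against 5.15% of all tested genes. With shRNA2 the median was -0.087, and 26 of 28 were higher than with shRNA1, with a median difference of 0.12. The difference between hairpins thus had the same sign as for the histone genes. FEN1, the flap endonuclease of lagging-strand synthesis, had 6.90, 8.25, 5.24, 5.19, 6.83 and 6.98 FPKM, and its log2 fold change was -0.46 with shRNA1 (limma adjusted p = 0.300). RRM2, a subunit of ribonucleotide reductase, had 6.49, 6.11, 4.74, 4.94, 5.45 and 5.38 FPKM, with a log2 fold change of -0.25 in knockdown (limma adjusted p = 0.155). MCM6, part of the replicative helicase, had 8.37, 8.30, 6.63, 6.16, 7.46 and 6.87 FPKM. In RRM2 and MCM6 both scramble libraries were above all knockdown libraries.

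Of 20 histone chaperones 18 were below 0 in knockdown, with a median log2 fold change of -0.12, and 4 (all lower) passed an unadjusted p under 0.05, against 63.1% and 9.56% of all tested genes. RBBP4, a subunit of chromatin assembly factor 1, had 18.8, 18.3, 16.2, 16.4, 15.8 and 16.4 FPKM, with a log2 fold change of -0.18 (limma adjusted p = 0.199). Of 10 tested replication-independent variants 8 were below 0, with a median of -0.15, and 4 (all lower) passed an unadjusted p under 0.05, against the same shares. H2AFV, one of the H2A.Z genes, had 28.5, 27.2, 22.04, 22.8, 23.6 and 23.2 FPKM, with a log2 fold change of -0.27 (limma adjusted p = 0.130). H2AFZ, the other, had 30.8, 32.3, 26.4, 26.4, 27.4 and 29.02 FPKM, with -0.20 (limma adjusted p = 0.200). Of 21 tested small structured RNAs 18 were below 0 in knockdown, against 63.1% of all tested genes, with a median of -0.14, while the scramble libraries differed by a median of 0.72 in these genes. RNU1-1 had 323.2, 288.2, 241.0, 224.1, 227.8 and 258.6 FPKM, with a log2 fold change of -0.36 (limma adjusted p = 0.221).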

How the data were processed

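RNA of 6 libraries was extracted with Trizol, depleted of ribosomal RNA with a RiboMinus kit and built into libraries with the KAPA RNA HyperPrep kit, per the labels' protocols. The authors deposited 1 table of FPKM values, with a column per library and a row per gene symbol, per the file headers. The submitters' processing notes name Trimmomatic 0.39, HISAT2 2.1.0, SAMtools 1.9, featureCounts 2.0.1 and the human build GRCh38. Which gene models were counted, whether strand was used and how reads with several matches were treated is not given in the sources used here, so reads of near-identical, overlapping and antisense genes cannot be assigned with certainty.

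Library totals were recovered from the steps between low FPKM values and GENCODE v29 exon lengths. For 26 histone genes these gave reads in whole twelfths (within 0.005 reads), and 37 of their 156 read values were whole. No count test was run, because the deposited values are FPKM. Most of these recovered values were not whole reads, and recovered reads are given only beside levels.

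Values were analysed as log2(FPKM + 1), a scale that understates the fold change of low genes, restricted to 18162 genes whose mean reached 1 FPKM. limma 3.58.1 (R 4.3.3), with a mean-variance trend, was fitted to all 3 groups. The p-values were adjusted by Benjamini-Hochberg over these 18162 genes, with 0.05 as the threshold for a call. Sequences were searched and sums made in Python 3.11.15 (pandas 2.3.3, numpy 2.4.6), and plots in matplotlib 3.10.9. Gene positions and types are those of GENCODE v29, and promoter windows are those of RefSeq.

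The histone genes and the gene lists were chosen with earlier results of these data known. By the rule used, the genes named with values were the 3 highest of each histone class, the 3 with the smallest p in each comparison, SLBP, NPAT and RNU7-1, and up to 4 members of each other list by p. Genes outside the rule are named where they are few or extreme. The alternatives were another pseudocount, 2 other filters, 2 scalings, fits of only the groups compared, a replicate block and leaving out each library.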

Additional observations from a re-analysis of the deposited data

How the results depend on the processing

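Of 102 alternative values (counts of called histone genes and median log2 fold changes in 4 comparisons), 91 stayed within the limits set for a change. Those limits were 1.5 times for a count and the spread between replicates for a median. Against scramble that spread was 0.18 in knockdown, 0.20 with shRNA1 and 0.22 with shRNA2. It includes the difference between the scramble libraries. The shRNA2 median of -0.13 could thus change sign and count as unchanged, as with quantile normalization (0.082). Some alternatives could not move a median, such as leaving out an shRNA1 library for shRNA2 against scramble. Leaving out 1 library moved the count of called histone genes from 0 to at most 18 in knockdown against scramble and to at most 34 in shRNA2 against scramble, both without scramble replicate 1, and left it at 0 for shRNA1 against scramble. In shRNA2 against shRNA1 the count ranged from 0 to 3, with 3 without either scramble library and 3 in a fit of only the groups compared, all of which take their spread from the same 4 hairpin libraries. The median log2 fold change ranged from -0.41 to 0.039 in knockdown, from -0.45 to 0.015 with shRNA1, from -0.37 to 0.071 with shRNA2 and from 0.012 to 0.14 between hairpins when each library was left out in turn. The lowest value against scramble was always that without scramble replicate 1 and the highest that without scramble replicate 2. With 1 scramble library left, its spread is assumed to equal that of the hairpin libraries. With quantile normalization the median between hairpins moved from 0.068 to 0.18, and that of shRNA2 against scramble from -0.13 to 0.082. With median-of-ratios scaling these medians were 0.15 and -0.058. The number of histone genes highest in scramble replicate 2 went from 65 to 35 with quantile normalization and to 14 as a share of all FPKM.

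Libraries with the same replicate number did not deviate together. Over tested genes the correlations of their deviations from the group means were -0.008 (scramble with shRNA1), -0.15 (scramble with shRNA2) and 0.012 (shRNA1 with shRNA2). Over the histone genes these correlations were -0.29, -0.62 and 0.039 in the same order. Histone genes with a larger difference of replicate 2 from replicate 1 in scramble thus tended to a lower one in shRNA2. The labels' numbers were therefore not taken as pairs. With a replicate block, 0 histone genes were called in each of the 4 comparisons. The medians of -0.18, -0.23, -0.13 and 0.068 could not change with it, because every group holds a library of each number. Fits of only the groups compared could not differ for knockdown against scramble, which uses all libraries.

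The 2 libraries per group, the lower depth of scramble replicate 1 (46634855 reads) and the sequence shared between histone copies limit these results. The cause of the difference between the scramble libraries was not tested.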
